A study of Homo sapiens with 6 samples.

Results

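The translation initiation factors and the protein kinases that act on eIF2 were described in HT29, an established human colon adenocarcinoma cell line, treated with NS398 or left as controls. NS398 selectively inhibits cyclooxygenase-2 (COX2), an enzyme of prostaglandin production. The members were given as a list of 44 gene symbols that was drawn up with earlier results of these data known, and 42 of the 44 had at least 1 probe set that names them alone. These 42 genes were read by 111 of the 54675 probe sets of the HG-U133 Plus 2.0 array, which names 19775 genes by a probe set of their own. *EIF4A1* and *EIF4G3* had no such probe set and were not analysed here as members.

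The series held 6 arrays in 2 groups. In the 3 control arrays the cells were untreated or, as the study's methods describe it, received the solvent dimethyl sulphoxide (DMSO) alone, and in the 3 arrays labelled NS398 they received NS398 in DMSO at the highest concentration the study tested; both groups were kept in serum-free medium. All arrays came from 1 cell line, so the data describe that line in culture and not colon tissue. The labels do not say how the cultures of a group were divided, and the p-values measure the spread between these arrays only. Each value is a linear signal of a probe set, and all arrays had been scaled to the same trimmed mean. Differences are NS398 minus control of the mean log2 signal, so a value of 1 is a doubling. These differences take the deposited labels as they stand, and their direction is opposite to the one the study gives for the transcripts it lists, *EIF2AK1* included. If the labels of the 2 groups were exchanged, every sign below would turn.

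Translation initiation is the step at which a ribosome finds the start codon of an mRNA. The factor eIF2, bound to GTP, carries the initiator methionine tRNA to the small ribosomal subunit, eIF3 and eIF1 hold that subunit ready, and eIF4F recognises the mRNA cap and unwinds the leader. eIF2B recharges eIF2 with GTP after each round. The eIF2 kinases phosphorylate the alpha subunit of eIF2 under stress, which blocks eIF2B, slows general protein synthesis and favours the translation of a few mRNAs such as that of the transcription factor ATF4. Many mRNAs of the translation machinery start with a C followed by a run of pyrimidines, and mTOR, a growth-sensing kinase, controls how well such mRNAs are translated. A transcript array measures none of these protein steps, only mRNA.

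The arrays were alike in scale, with medians of 65.0 to 80.2 signal units. The epithelial genes *EPCAM*, *KRT8*, *KRT18*, *KRT19*, *KRT20*, *CDH1* and *VIL1* were bright, whereas *CDX1*, *CDX2* and *CDH17*, transcription factors and a cadherin of intestinal epithelium, were near background. The summed signal of all 10 epithelial markers was 108571 to 123112 in the control arrays and 125632 to 133291 in the NS398 arrays. Within it *KRT20* rose 2.22-fold (adjusted p = 0.000169 by the test described below) and *VIL1* fell to 0.613 of its control signal (adjusted p = 0.00895), and the other 8 did not pass. Summed signals of fibroblast markers were 449 to 594 and 701 to 889, those of endothelial markers 172 to 301 and 234 to 300, and those of the 4 measured of 6 leukocyte markers 195 to 336 and 188 to 229. Of these 3 lists only the fibroblast gene *LUM* passed, at 4.73-fold higher (45.5 to 215 signal units, adjusted p = 0.00514). The part of these markers in the results was not tested. RNA integrity was read from *ACTB*, as the signal of its 3-prime over that of its 5-prime control probes, and this ratio was 1.29 ± 0.0301 in the control and 1.56 ± 0.133 in the NS398 arrays (SD, n = 3 each). All 3 NS398 arrays lay above all 3 control arrays (exact two-sided permutation test, p = 0.10, the smallest that 3 against 3 arrays allow). The same ratio for *GAPDH* was 1.03 ± 0.0551 and 1.10 ± 0.0899, and the groups overlapped (p = 0.50 by the same exact permutation test). The part of RNA integrity in the differences below was not tested.

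Of the 42 members, 13 rose in the NS398 arrays and 0 fell, and 29 did not pass the test. The test was limma with a prior variance that follows the signal level, here called the variance-trend test, with Benjamini-Hochberg adjusted p under 0.05 over all 54675 probe sets, and each gene was read from its brightest probe set. The 13 were *EIF2S2*, *EIF2B3* and *EIF2A* around eIF2, the kinase *EIF2AK4*, the eIF3 subunits *EIF3A*, *EIF3D*, *EIF3J*, *EIF3K* and *EIF3M*, the helicase partner *EIF4B*, and *EIF1*, *EIF1B* and *EIF5* of the start-codon step. They make up 31.0% of the members, where 5.23% of all 19775 genes rose and 4.85% fell. Most members are bright, and 33.3% rose of the 39 members whose log2 signal averaged over 9, equal to 512 on the linear scale. Of the 7699 genes of the array that are as bright, 10.6% rose and 9.72% fell.

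The median difference of the 42 members was 0.19 and the range -0.39 to 0.76. Over all genes the median was 0.06. Among genes above a log2 signal of 9 it was 0.15 for the members and 0.01 for all. The difference was above 0 in 34 members, but in 27 when each array was centred on its median, a step that moved the median of all genes from 0.06 to -0.06. On the scale of the control mean, the median of the members was -0.04, -0.03 and 0.00 in the 3 control arrays and 0.19, 0.20 and 0.20 in the 3 NS398 arrays. In 20 members all NS398 arrays lay above all control arrays and in 2 members below them. That is to be set against 17.2% and 13.5% of all genes, and 25.5% and 23.0% of the bright ones. In bulk RNA a difference in the mix of cells and a difference in RNA per cell cannot be told apart.

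**Figure D1:**
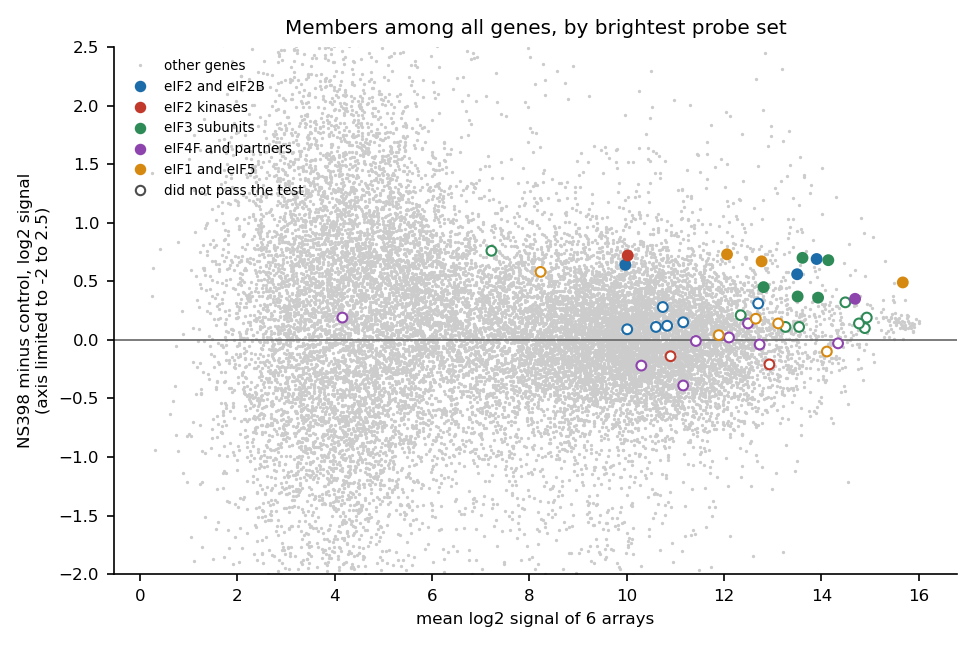
Difference in log2 signal (NS398 minus control, vertical axis clipped at its ends) against the mean log2 signal of the 6 arrays for every gene of the array, read from its brightest probe set. Grey points are other genes, coloured points are members by group, and filled points passed the variance-trend test: the 13 filled points all lie above 0, and 39 of the 42 members lie to the right of 9.

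The calls depended on the setting. Limma with a single prior variance passed 0 members, but it called only 0.0348% of all probe sets higher and 0.00914% lower, so its count says little about the members. At an unadjusted p under 0.05, in either direction, the variance-trend test had 19 members, all among the 39 bright ones. It also had 4844 of all 19775 genes and 3236 of the 7699 bright genes, so this count is not particular to the members. With each array centred on its median, *EIF2S2*, *EIF3A* and *EIF3M* still passed, with differences of 0.57, 0.58 and 0.56, and the other 10 did not (0.22 to 0.61, adjusted p 0.0632 to 0.383). That centring also turned the balance of all probe sets from 1782 higher and 1731 lower to 864 higher and 1943 lower.

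Several calls were lost when an array was left out, which also lowers the number of arrays: *EIF2B3*, at 0.64 with all 6 arrays, lost its call at 0.63 and 0.67. Without NS398 replicate 1, *EIF2S2*, *EIF2B3*, *EIF3A* and *EIF3M* passed and 9 did not, with differences of 0.32 to 0.67 and adjusted p of 0.0514 to 0.153. Without NS398 replicate 2, *EIF2S2*, *EIF3A*, *EIF3M* and *EIF5* passed and 9 did not (0.31 to 0.79, adjusted p 0.0537 to 0.162). Leaving out control replicate 3 removed *EIF2B3*, *EIF3D*, *EIF3J*, *EIF3K*, *EIF4B* and *EIF1* (0.34 to 0.63, adjusted p 0.0553 to 0.166). *EIF1* lost its call without control replicate 1 (0.43, adjusted p = 0.0892) and *EIF3D* without control replicate 2 (0.32, adjusted p = 0.0768). Without NS398 replicate 3, *EIF3D* (0.37, adjusted p = 0.0925) and *EIF1B* (0.81, adjusted p = 0.0633) lost theirs. *EIF2S2*, *EIF3A* and *EIF3M* passed whichever array was left out. When a gene's probe sets were averaged instead, *EIF3M* lost its call (0.50, adjusted p = 0.228), as did *EIF5* (0.41, adjusted p = 0.0583), *EIF1B* (0.69, adjusted p = 0.0662), *EIF2AK4* (0.51, adjusted p = 0.146) and *EIF4B* (0.14, adjusted p = 0.614). The sign of all 13 was the same in each of the 14 alternative settings.

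**Figure D2:**
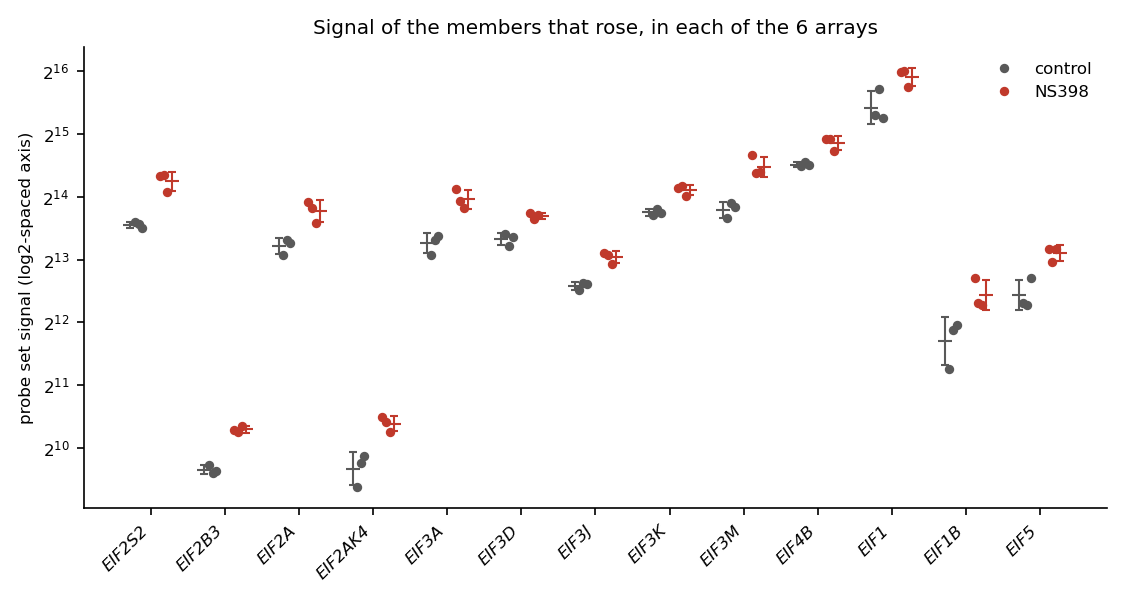
Probe set signal (vertical axis spaced in log2) of the 13 members that rose, in each of the 3 control arrays (grey) and 3 NS398 arrays (red); the cross and bar beside the points give the mean and SD of the log2 signals. For every gene shown the 3 NS398 points lie above the 3 control points, by the narrowest margin for *EIF1*.

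Of the 9 genes of eIF2 and its exchange factor eIF2B, 3 rose (33.3%, beside 10.6% of bright genes) and 6 did not pass. The median difference was 0.28 and the range 0.09 to 0.69, and the differences were above 0 in all 9 as deposited but in 7 after median centring. Their largest difference was in *EIF2S2*, which encodes the beta subunit of eIF2. Its signal was 12379, 12110 and 11630 in the control arrays and 20543, 20817 and 17251 in the NS398 arrays. The groups did not overlap, and the difference was 0.69 ± 0.09 (SE, n = 3 per group, variance-trend test, adjusted p = 0.00144). Its second, dimmer probe set gave 0.22 ± 0.15 with groups that overlapped and did not pass (adjusted p = 0.518).

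*EIF2B3* encodes the gamma subunit of eIF2B, part of its catalytic core. The signal was 848, 775 and 793 in the control arrays and 1245, 1218 and 1308 in the NS398 arrays. The spread within each group was small beside the gap between them, and the difference was 0.64 ± 0.13 (adjusted p = 0.0112). *EIF2A* is a single-chain factor that can deliver initiator tRNA without being part of eIF2 itself. It gave 8633, 10155 and 9836 in the control and 15463, 14554 and 12298 in the NS398 arrays. All 3 treated arrays were above the controls, at 0.56 ± 0.11 (adjusted p = 0.0105). The alpha subunit gene *EIF2S1*, whose protein the kinases phosphorylate, differed by 0.15 ± 0.12 (adjusted p = 0.571) and the gamma subunit gene *EIF2S3* by 0.31 ± 0.09 (adjusted p = 0.0786). *EIF2S3* did not pass, although its groups did not overlap. The other eIF2B genes, *EIF2B1*, *EIF2B2*, *EIF2B4* and *EIF2B5*, lay between 0.09 and 0.28 and did not pass either.

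The 3 kinase genes did not move together. *EIF2AK4* encodes GCN2, the kinase that senses uncharged tRNA when amino acids run short. It rose from 661, 862 and 938 in the control arrays to 1434, 1365 and 1223 in the NS398 arrays. The groups did not overlap, and the difference was 0.72 ± 0.16 (adjusted p = 0.0197). Its other probe set was dim, with a difference of 0.30 that did not pass, and the mean of both probe sets lost the call.

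*EIF2AK1* encodes HRI, the kinase that responds to low haem and to mitochondrial stress. On its brightest probe set the signal was 8660, 7892 and 8584 in the control and 7132, 6982 and 7624 in the NS398 arrays. The NS398 arrays were all below the controls, but the difference of -0.21 ± 0.09 did not pass (adjusted p = 0.246). The other probe set of the gene gave 767, 750 and 807 in the control and 387, 460 and 380 in the NS398 arrays. There the difference was -0.93 ± 0.16 and passed (adjusted p = 0.00467), as it did in 12 of the 13 alternative settings that keep single probe sets. The mean of both gave -0.57 (adjusted p = 0.00768). The probe sets of *EIF2AK1* thus gave 2 sizes of difference in the same direction, and how many transcripts each one reads was not analysed here. *EIF2AK2* encodes PKR, the kinase that responds to double-stranded RNA, and differed by -0.14 ± 0.13 (adjusted p = 0.637). On the scale of the control mean, the median of the 3 kinases was -0.20, 0.09 and 0.04 in the control and -0.16, -0.16 and -0.10 in the NS398 arrays, so the groups overlapped.

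**Figure D3:**
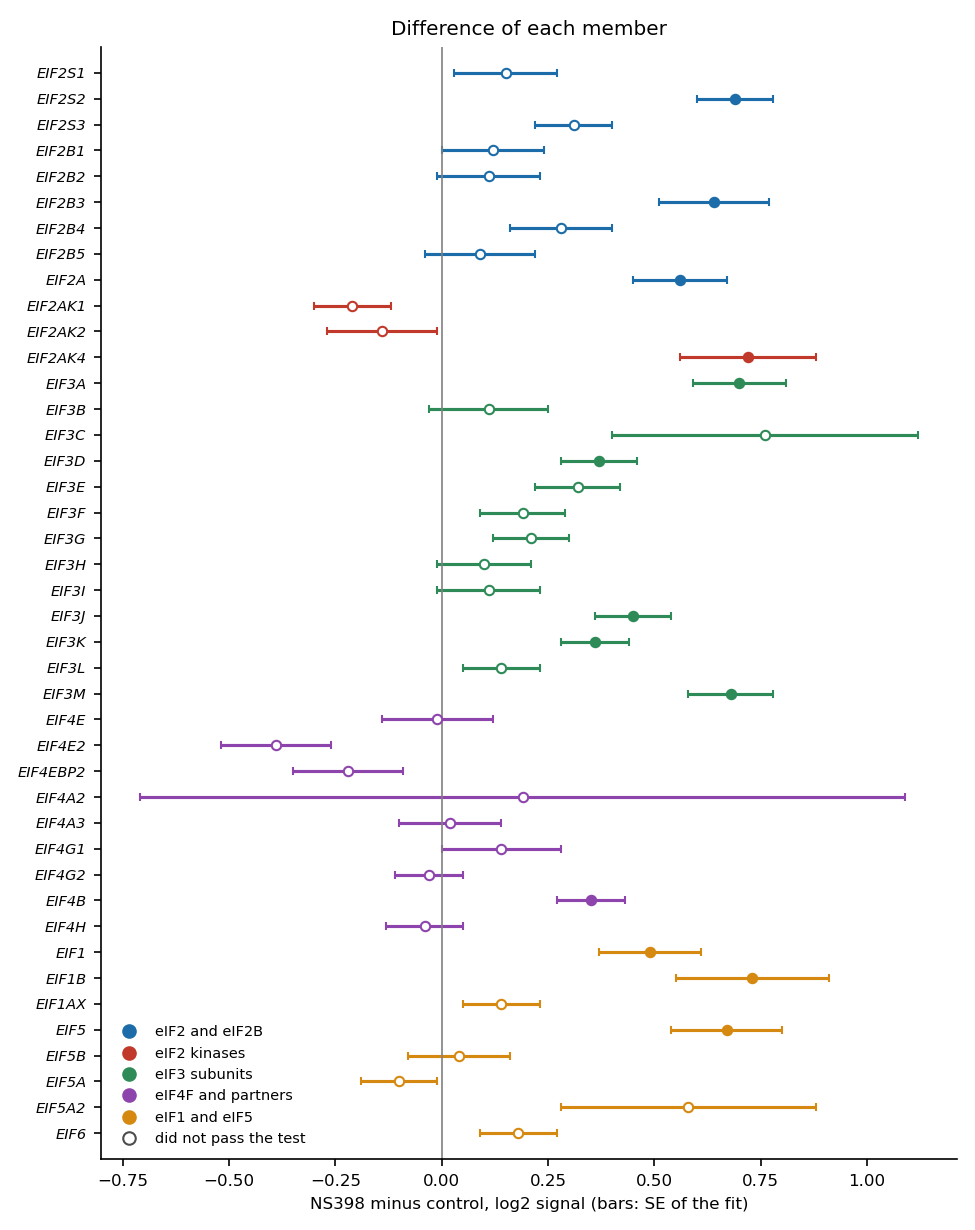
Difference in log2 signal (NS398 minus control) of each of the 42 members, read from its brightest probe set; bars are the SE of the fit and open circles did not pass the variance-trend test. The eIF2, eIF2B and eIF3 genes all lie above 0, the eIF4F genes lie on both sides of it, and *EIF4A2* and *EIF3C* have the widest bars.

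eIF3 is the largest initiation factor, a scaffold of many subunits on the small ribosomal subunit. All 13 subunit genes had a difference above 0, with a median of 0.32 and a range of 0.10 to 0.76, and 10 of the 13 after median centring. Of the 13, 5 rose (38.5%) and 0 fell, and in 7 all NS398 arrays lay above all control arrays. Among bright genes 10.6% rose, and 25.5% had all NS398 arrays above all control arrays. On the scale of the control mean the median of the 13 was -0.11, 0.06 and -0.01 in the control arrays and 0.39, 0.25 and 0.26 in the NS398 arrays.

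*EIF3A* encodes the largest scaffold subunit. Its signal was 8634, 10217 and 10675 in the control and 17905, 15599 and 14457 in the NS398 arrays. The lowest NS398 array was well above the highest control, and the difference was 0.70 ± 0.11 (adjusted p = 0.00339). Of its other probe sets, 1 gave 0.71 ± 0.10 and passed (adjusted p = 0.00181), and the dimmest gave 0.19 and did not. *EIF3M*, a subunit of the same structural core, rose from 12906, 15279 and 14608 to 25986, 21283 and 21575. NS398 replicate 1 was the highest of these arrays, and the difference was 0.68 ± 0.10 (adjusted p = 0.00265). Its 4 other probe sets lay between -0.09 and 0.81 and did not pass, the brightest of them at 0.55 (adjusted p = 0.0556).

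*EIF3J* encodes a loosely bound subunit near the decoding site. It rose from 5852, 6338 and 6224 to 8836, 8622 and 7794, a difference of 0.45 ± 0.09 (adjusted p = 0.0147). Its second probe set gave 0.59 and passed too. *EIF3D*, the subunit that can itself bind the mRNA cap, gave 10827, 9537 and 10522 in the control and 13719, 12822 and 13350 in the NS398 arrays. *EIF3K*, a small peripheral subunit, gave 13392, 14349 and 13680 in the control and 18119, 18431 and 16496 in the NS398 arrays. Neither pair of groups overlapped, and these were the smaller differences among the 5, at 0.37 ± 0.09 (adjusted p = 0.0298) for *EIF3D* and 0.36 ± 0.08 (adjusted p = 0.0293) for *EIF3K*. Of the subunits that did not pass, *EIF3E*, *EIF3F*, *EIF3G*, *EIF3B*, *EIF3H*, *EIF3I* and *EIF3L* lay between 0.10 and 0.32. *EIF3C* had the highest difference, 0.76 ± 0.36, but its only own probe set had just 114 and 193 signal units and did not pass (adjusted p = 0.295).

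The eIF4F group stood nearer to 0. It takes in the cap-binding protein eIF4E, the helicases eIF4A, the scaffolds eIF4G and their partners, and 9 of its 11 listed genes were measured. *EIF4A1* and *EIF4G3* were not, and *EIF4A2* was read only from a dim probe set. Of the probe sets that *EIF4A2* shares with small RNAs, the brighter rose by 0.47. The other did not pass, nor did those that *EIF4A1* shares. The median difference of the 9 measured genes was -0.01 and the range -0.39 to 0.35, with 4 genes above 0 and 5 below, or 3 and 6 after median centring. Only *EIF4B*, which stimulates the eIF4A helicase, passed (11.1% of the 9, beside 10.6% of bright genes). It rose from 22969, 24025 and 23224 to 31016, 31110 and 27277. All NS398 arrays were above the controls, at 0.35 ± 0.08 (adjusted p = 0.0291). The 2 other probe sets of *EIF4B* gave 0.21 and -0.12 and did not pass, and the mean of all 3 was 0.14 (adjusted p = 0.614).

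*EIF4E2* encodes a cap-binding relative of eIF4E that acts in the repression of mRNAs. Its signal was 2649, 2291 and 2927 in the control and 2134, 1840 and 2021 in the NS398 arrays. The NS398 arrays were all below the controls, and the difference of -0.39 ± 0.13 did not pass (adjusted p = 0.103). All 4 probe sets of the gene lay below 0, from -0.50 to -0.36, and 1 of them passed with 2308, 1896 and 2079 in the control and 1521, 1507 and 1520 in the NS398 arrays (-0.46 ± 0.12, adjusted p = 0.0422; passed in 5 of 13 alternative settings). *EIF4EBP2*, which encodes a protein that holds eIF4E away from eIF4G, gave 1465, 1245 and 1375 in the control and 1208, 1050 and 1260 in the NS398 arrays. These groups overlapped (-0.22 ± 0.13, adjusted p = 0.439). The cap-binding protein gene *EIF4E* itself was at -0.01 ± 0.13, the scaffold genes *EIF4G1* and *EIF4G2* at 0.14 and -0.03, *EIF4A3*, the helicase of the exon junction complex, at 0.02, and *EIF4H* at -0.04. *EIF4A2* was dim on its own probe set (16.8 and 19.1 signal units, 0.19 ± 0.90).

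The last group takes in the factors that choose the start codon and join the large ribosomal subunit. Of its 8 genes, 3 rose (37.5%, beside 10.6% of bright genes), the median was 0.33 and the range -0.10 to 0.73. The group lay above 0 in 7 genes, or in 6 after median centring. *EIF1*, which guards against wrong start codons, gave 40358, 53983 and 38958 in the control and 64830, 65710 and 54967 in the NS398 arrays. Control replicate 2 nearly reached the lowest NS398 array, and the difference was 0.49 ± 0.12 (adjusted p = 0.0373). Of the 7 probe sets of *EIF1*, 5 passed higher, and the remaining 2 gave groups that overlapped.

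*EIF1B*, its close paralog, rose from 2451, 3752 and 3981 to 6675, 5085 and 4956. Control replicate 1 was the lowest array and NS398 replicate 1 the highest, and the difference was 0.73 ± 0.18 (adjusted p = 0.0349). *EIF5*, which makes eIF2 hydrolyse its GTP once the start codon is found, rose from 5053, 4972 and 6693 to 9226, 7981 and 9249. Its groups did not overlap, at 0.67 ± 0.13 (adjusted p = 0.00920), and all 5 of its probe sets lay above 0, of which 1 passed. *EIF5B*, which joins the ribosomal subunits, was at 0.04, *EIF5A*, now known mainly for elongation, at -0.10, *EIF1AX* at 0.14 and *EIF6*, which keeps the large subunit apart, at 0.18; none of these 4 passed. *EIF5A2*, at 246 and 369 signal units, differed by 0.58 ± 0.30 and did not pass (adjusted p = 0.344).

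Reading every probe set instead of the brightest gave 20 that rose and 2 that fell of 111, where 3.26% of all probe sets rose and 3.17% fell. Most of the 111 were brighter than the median probe set of an array. The share among probe sets of like brightness was not counted. The 20 are not separate results, since they came from 13 members, with 5 from *EIF1* alone. By group, the probe sets that rose were 3 of 16 for eIF2 and eIF2B, 1 of 7 for the kinases, 8 of 32 for eIF3, 1 of 25 for eIF4F and its partners, and 7 of 31 for eIF1 and eIF5. The 2 that fell were those of *EIF2AK1* and *EIF4E2* given above. In 13 of the 29 members with more than 1 probe set, all probe sets lay on the same side of 0. *EIF1AX* was among those that did not, with 0.14 on its brightest probe set, all NS398 arrays above the controls, and all NS398 arrays below the controls on the second (5094, 4615 and 5730 against 4219, 4399 and 4269); neither passed. Of the 111 probe sets, 17 had a mean log2 signal under 7, a signal of 128.

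**Figure D4:**
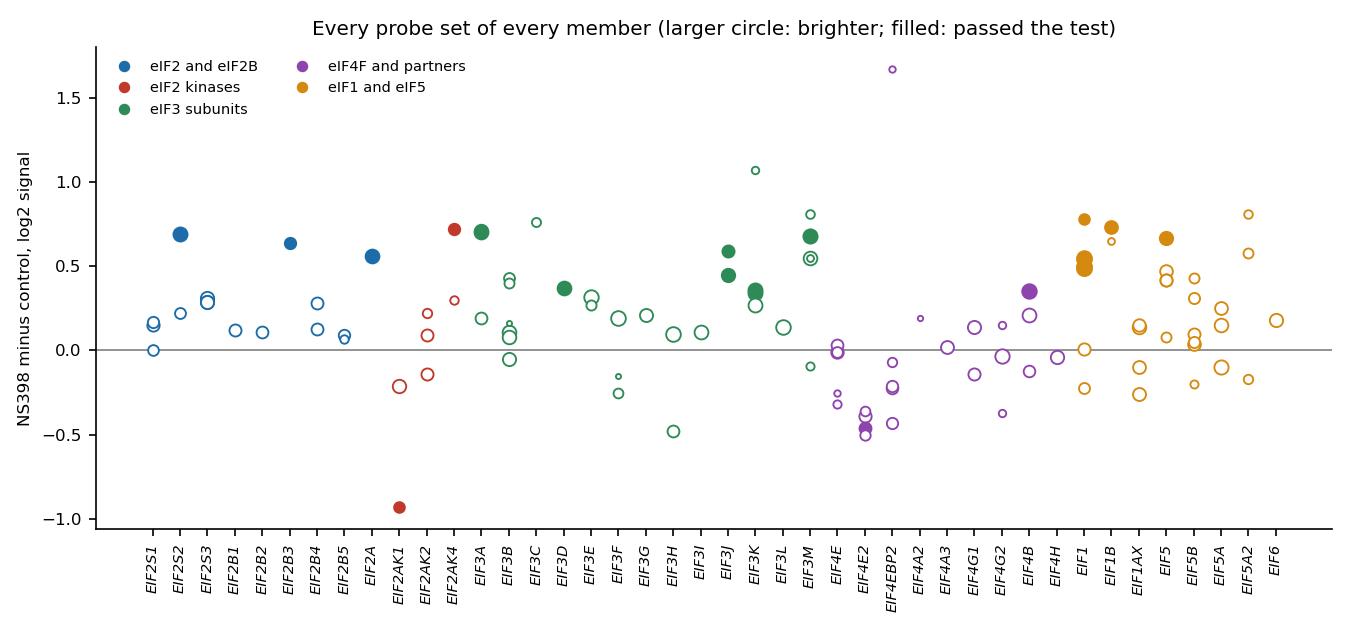
Difference in log2 signal (NS398 minus control) of each of the 111 probe sets, one column per member; larger circles are brighter probe sets and filled circles passed the variance-trend test. The 20 filled circles above 0 and the 2 below it, of *EIF2AK1* and *EIF4E2*, are shown beside the probe sets of the same gene that did not pass.

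Transcription starts of the members are shown because the C-and-pyrimidine start described above marks many mRNAs of the translation machinery. RefSeq starts on GRCh38.p14 were found for 35 of the 42 measured members, among them 11 of the 13 that rose. No start was found for *EIF2S2* and *EIF3A*, which rose. The same holds for *EIF2AK1*, *EIF3E*, *EIF3G*, *EIF3H* and *EIF3L*, which did not pass, and the shares below leave all of these genes out. A start with a C followed by at least 4 pyrimidines, a measure chosen after the values were seen, was annotated for 5 of those 11 (45.5%), for 3 of the 24 that did not pass (12.5%) and for 1404 of 27305 genes of the table (5.14%). Among the 24, *EIF4A2* and *EIF3C* were read from dim probe sets, at 16.8 and 19.1 and at 114 and 193 signal units in control and NS398. Those probe sets could hardly pass. The brighter of the probe sets that *EIF4A2* shares with other genes rose by 0.47, and those that *EIF3C* shares rose by 0.52 to 0.53. These shares are descriptions, and the annotated start is not the start measured in HT29. How often bright genes have such a start was not counted. The windows of the 5 genes that rose and the 3 that did not pass run from 15 bases before the annotated start, on the strand of the gene, with the pyrimidine run in capitals.
EIF2A (chr3:150546772-150546801, plus strand, rose): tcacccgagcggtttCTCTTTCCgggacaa
EIF3D (chr22:36529152-36529181, minus strand, rose): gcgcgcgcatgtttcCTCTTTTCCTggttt
EIF3K (chr19:38619173-38619202, plus strand, rose): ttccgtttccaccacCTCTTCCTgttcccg
EIF3M (chr11:32583816-32583845, plus strand, rose): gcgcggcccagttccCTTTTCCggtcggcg
EIF4B (chr12:53006441-53006470, plus strand, rose): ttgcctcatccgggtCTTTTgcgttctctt
EIF2S3 (chrX:24054941-24054970, plus strand, did not pass): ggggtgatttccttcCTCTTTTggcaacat
EIF3F (chr11:7987322-7987351, plus strand, did not pass): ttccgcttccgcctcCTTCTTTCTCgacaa
EIF4A2 (chr3:186783562-186783591, plus strand, did not pass): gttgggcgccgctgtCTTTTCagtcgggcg

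The runs of *EIF3D* and *EIF3F* were the longest at 10 bases, so the length of the run did not separate the gene that rose from the one that did not. Of the 4 kinds of sequence searched, the E-box CACGTG, read by MYC and related factors, was the other one found. Between 250 bases before and 50 after the annotated start, on both strands, it was present for 11 of 35 members (31.4%) and 8.77% of all genes of the table. The share was 36.4% of the members that rose and 29.2% of those that did not pass. Among bright genes of the array it was not counted. The 4 genes that rose and hold it are shown with the E-box in capitals.
EIF1B (chr3:40309641-40309670, plus strand, 54 bases before the start): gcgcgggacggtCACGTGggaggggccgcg
EIF2B3 (chr1:44986757-44986786, minus strand, 179 bases before the start): gacagagggacaCACGTGtcgaatgctcct
EIF3K (chr19:38619073-38619102, plus strand, 103 bases before the start): cgaggaagaagtCACGTGgcagccggaaag
EIF4B (chr12:53006422-53006451, plus strand, 22 bases before the start): gcccgctataatCACGTGattgcctcatcc

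The element TGATGNAAN, bound by ATF4 with C/EBP partners, and the E2F motif TTTCGCGC were in 0 of the 35 windows of the members, and in 4.45% and 0.630% of all genes of the table. A missing match says only that these letters are not in the window.

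Other genes of translation initiation and its control were read from a list of 30, of which 28 had a probe set of their own. Of these, 3 rose (10.7%) and 1 fell, and 25 of the 28 had a mean log2 signal above 9, where 10.6% of all genes rose and 9.72% fell. The share that rose was close to that of all bright genes, and the median difference of 0.06 was the same as over all genes, with a range of -0.71 to 1.69. *EIF4EBP1* encodes the best studied of the proteins that hold eIF4E in check. It rose from 2004, 1730 and 1650 in the control arrays to 5970, 5060 and 6298 in the NS398 arrays. The lowest NS398 array was far above the highest control, and the difference was 1.69 ± 0.12 (adjusted p = 3.06e-05). Its relative *EIF4EBP2*, a member, was at -0.22 and did not pass.

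*ATF4* encodes the transcription factor whose mRNA is translated better when eIF2 is phosphorylated. Its signal was 20865, 20235 and 19065 in the control and 41874, 41220 and 40492 in the NS398 arrays. That is 2.06-fold, with hardly any spread within a group (1.04 ± 0.08, adjusted p = 3.06e-05). *MKNK2*, a kinase of eIF4E, rose by 0.77 ± 0.09 (adjusted p = 0.000688). *PAIP2*, which encodes a repressor of the poly(A)-binding protein, gave 6058, 7407 and 7459 in the control and 4176, 4546 and 4045 in the NS398 arrays. It was the gene of this list that fell, at -0.71 ± 0.11 (adjusted p = 0.00309). *EIF4EBP1*, *ATF4* and *MKNK2* passed in 13 of 14 alternative settings and *PAIP2* in 12.

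*EIF2AK3* encodes PERK, the eIF2 kinase of the endoplasmic reticulum, and gave 1386, 1833 and 1910 in the control and 2662, 2303 and 2149 in the NS398 arrays. The groups did not overlap, but the difference of 0.48 ± 0.15 did not pass (adjusted p = 0.0860). *IMPACT*, which encodes an inhibitor of GCN2 activation, was at 0.76 ± 0.21 (adjusted p = 0.0581), and *GCN1*, whose protein activates GCN2, at -0.11 ± 0.14 (adjusted p = 0.757). *PPP1R15A*, which encodes the inducible GADD34 subunit that reverses eIF2 phosphorylation, was at -0.44 ± 0.18 (adjusted p = 0.206).

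**Figure D5:**
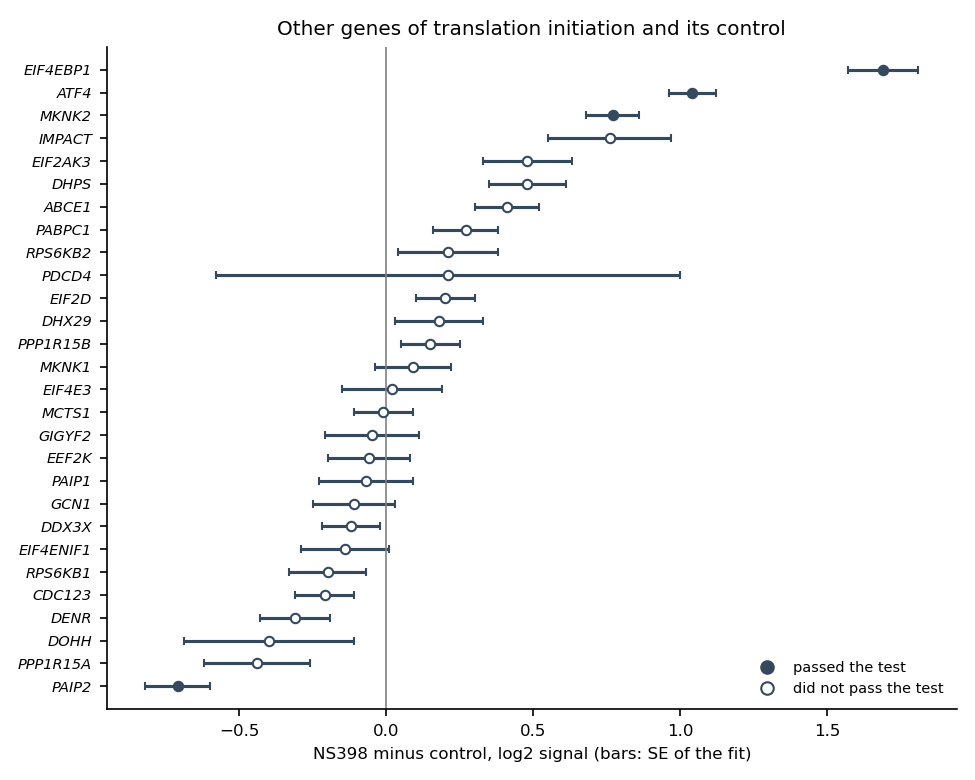
Difference in log2 signal (NS398 minus control) of the 28 measured genes of the list of other initiation and control genes, ordered by size; bars are the SE of the fit and filled circles passed the variance-trend test. *EIF4EBP1*, *ATF4* and *MKNK2* lie above 0 and *PAIP2* below it; the dim *PDCD4* has the widest bar.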

How the data were processed

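Total RNA of 6 HT29 cultures was hybridised to HG-U133 Plus 2.0 arrays. The authors deposited linear probe set intensity values, and the affy package, with no version, is named in the submitters' processing notes. The study's methods describe gcRMA with quantile normalisation, which the values do not show, and SAM, which was not run. Probe sets were named from the platform annotation given with the files. The log2 of the signal was fitted with limma 3.58.1 in R 4.3.3 (eBayes with trend and robust estimation), treatment being the single term, and p-values were Benjamini-Hochberg adjusted over 54675 probe sets. The test was tried on simulated data first. Among bright probe sets it recovered 4 of 50 planted changes of 1.5-fold, 24 of 50 of 2-fold and 47 of 50 of 4-fold. It made 6 false calls over 54675 probe sets. Far fewer changes were planted than the real arrays gave calls, so these rates need not hold there. A member that did not pass may still differ. A gene was read from the probe set with the highest mean log2 signal. The precision is limited by 3 arrays per group. Members that passed were named with every array, at most 6 a group. Where fewer than 2 of a group passed, the 2 of largest difference were added. From the pathway list, genes that passed were named, and *EIF2AK3*, *IMPACT*, *GCN1* and *PPP1R15A* were added for their role. Members and lists were chosen with earlier results of these data known.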

Additional observations from a re-analysis of the deposited data

Results flagged for a closer look

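Probe sets that name a member together with other genes were left out of the counts above, and 4 of these 9 passed the variance-trend test, all higher in the NS398 arrays. Of all probe sets, most of them dimmer, 3.26% rose, and 3 of the 4 read the same pair of gene copies. The 3 probe sets shared by *EIF3C* and its near-identical copy *EIF3CL* differed by 0.52 ± 0.08 (15234 to 21856, adjusted p = 0.00223), 0.53 ± 0.08 (17052 to 24669, adjusted p = 0.00210) and 0.52 ± 0.08 (11701 to 16788, adjusted p = 0.00286), and each passed in 11 of 13 alternative settings. The reads of the 2 copies cannot be told apart there, and the probe set that names *EIF3C* alone had 114 and 193 signal units. The brighter of the probe sets shared by *EIF4A2* and the small RNAs within it gave 29258, 30061 and 24890 in the control and 40112, 40012 and 36389 in the NS398 arrays, a difference of 0.47 ± 0.09 (adjusted p = 0.0103) that passed in 8 of 13.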

How the results depend on the processing

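The 14 alternative settings gave 182 differences for the 13 members that rose; all 182 were above 0 and 121 passed the threshold. Of the 405 differences of the other members, 24 changed sign, in 17 members, and 4 passed the threshold: *EIF2S3* and *EIF4E2* with only probe sets above a log2 signal of 7, *EIF2AK1* with each gene's probe sets averaged, and *EIF3E* without control replicate 2. *EIF4A2* had no value with that filter.

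The count of members that rose was 0 under plain limma, 3 with median centring, 8 with each gene's probe sets averaged, 8 under the replicate block, and 4 to 13 when each array was left out in turn. The count that fell was 1 with the filter above 7 and 1 with each gene's probe sets averaged. Member probe sets that rose numbered 0 under plain limma, 6 with median centring and 8 to 20 with an array left out, and those that fell 0, 1 and 1 to 2. Medians with median centring were 0.06 for the members, 0.16 for eIF2 and eIF2B, -0.26 for the kinases, 0.20 for eIF3, -0.13 for eIF4F and 0.21 for eIF1 and eIF5. With each gene's probe sets averaged they were 0.16 for the members, 0.21 for eIF2 and eIF2B and 0.06 for the kinases. The members' median was 0.15 after quantile normalisation and 0.16 with an offset of 32. With an array left out it was 0.17 to 0.22, and the medians of eIF2 and eIF2B, the kinases and eIF1 and eIF5 were 0.23 to 0.31, -0.18 to -0.03 and 0.22 to 0.38. Pathway list genes that rose numbered 0 under plain limma, 5 after quantile normalisation, 7 with the filter above 7, 5 with array weights, 5 with each gene's probe sets averaged and 3 to 5 with an array left out. Those that fell numbered 0 under plain limma and 0 with each gene's probe sets averaged. The cause of these shifts was not tested.

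Same-numbered arrays deviated from their group means with correlations of -0.14, -0.06 and -0.10, so no pairing by number was seen in the signals. The labels do not say whether same-numbered cultures were handled together, and these correlations cannot decide it. With the replicate number as a block, *EIF2AK4*, *EIF3D*, *EIF3K*, *EIF4B* and *EIF1B* lost the call, and 1 member probe set fell. The medians of groups, the pathway list, the probe sets of several genes and the second probe sets of *EIF2AK1* and *EIF4E2* were put through the settings after the data had been seen. Faint probe sets have wide errors, as those that name *EIF4A2* and *EIF3C* alone show.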

Other observations

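*EIF4A1*, the main helicase of eIF4F, was read by 3 probe sets that it shares with small nucleolar RNAs and, in 2 of them, a read-through transcript. They gave differences of 0.18 ± 0.09, 0.16 ± 0.09 and 0.36 ± 0.25 (variance-trend test, adjusted p = 0.326, 0.380 and 0.511), and the groups overlapped in each.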
